A study of Arabidopsis thaliana with 6 samples.

Results

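The beta-tubulin family of Arabidopsis thaliana is described here: the 9 genes TUB1 to TUB9, taken by gene identifier from a table of 33557 genes. All 9 were in the table, and all 9 were among the 23937 genes tested by the study's authors. RNA was sequenced from 4-day-old seedlings of 2 genotypes with 3 libraries each, and the labels code the light treatment as D4d+FR3h, read here as darkness followed by far-red light. Both genotypes carry fhy1-1, a mutation in FHY1, the shuttle protein on which nuclear import of phytochrome A, the receptor for far-red light, depends. The first is fhy1-1 alone, and the second, called the GFP-FHY1 line, is fhy1-1 with a GFP-FHY1 fusion driven by the 35S promoter, which is active in most tissues. With no wild type and no seedlings kept out of far-red in the comparison, regained FHY1 function, surplus FHY1 and a lasting difference between the lines cannot be told apart.

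Beta-tubulin pairs with alpha-tubulin, and the dimers polymerise into microtubules. In growing seedling cells the microtubules under the plasma membrane guide the enzymes that lay down cellulose, and so direct cell elongation, while other arrays separate chromosomes and build the new wall in dividing cells. Plants hold several genes for each tubulin, and the member proteins differ mainly at their acidic end, which projects from the microtubule surface. TUB1 is known as a gene whose transcript is lowered by light in hypocotyls through phytochromes A and B. TUB2 and TUB3 are neighbouring copies that encode the same protein, TUB6 is known for a transcript that declines in the cold, TUB8 for expression in vascular tissue and TUB9 for expression in pollen.

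The last 60 coding bases show how the members differ near the stop codon. How far their separate values can be trusted depends on the whole transcripts, described after them. They were read from the RefSeq TAIR10.1 genome and are written 5′ to 3′ on the coding strand, ending with the stop codon. In 3 pairs whose coding sequences align without a gap (TUB2 with TUB3, TUB4 with TUB9, TUB6 with TUB8), capitals mark the bases that differ within the pair. TUB7 also aligns without a gap to TUB6, at 80.4% identity, but TUB6 is marked against TUB8, at 80.9%. TUB1, TUB5 and TUB7 therefore carry no capitals.
TUB2: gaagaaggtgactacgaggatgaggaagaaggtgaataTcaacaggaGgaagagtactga
TUB3: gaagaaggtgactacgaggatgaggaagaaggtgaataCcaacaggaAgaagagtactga
TUB4: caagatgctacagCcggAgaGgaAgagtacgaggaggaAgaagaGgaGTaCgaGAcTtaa
TUB9: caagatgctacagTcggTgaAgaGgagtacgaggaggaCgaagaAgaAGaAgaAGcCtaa
TUB6: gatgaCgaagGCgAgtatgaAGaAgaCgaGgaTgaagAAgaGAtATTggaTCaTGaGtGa
TUB8: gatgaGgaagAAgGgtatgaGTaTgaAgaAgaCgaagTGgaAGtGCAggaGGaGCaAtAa
TUB1: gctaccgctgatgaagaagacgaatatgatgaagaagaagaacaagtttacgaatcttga
TUB5: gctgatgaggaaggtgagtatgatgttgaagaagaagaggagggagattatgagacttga
TUB7: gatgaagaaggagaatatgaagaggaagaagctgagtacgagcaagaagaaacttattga

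Within these 60 bases TUB2 and TUB3 differed at 2, TUB4 and TUB9 at 12, and TUB6 and TUB8 at 23. Over the whole coding sequence TUB2 and TUB3 were 97.6% identical, TUB1 and TUB5 87.4% and TUB4 and TUB9 87.3%. The median of all 36 pairs was 80.4%, and the lowest was 78.7%. In the longest RefSeq transcripts, 22.3% of the 50-base windows of TUB2 and 22.0% of those of TUB3 were found letter for letter in the other copy. For each of the other 7 genes at most 0.235% of such windows were shared with another member. With windows of 36 bases, 30.9% of those of TUB2 and 30.6% of those of TUB3 matched the other copy. At most 2.1% were then shared for any of the other 7 genes. With 100 bases the shares were 11.3% for TUB2, 11.2% for TUB3 and 0 for the others. Which length fits the reads is unknown. How reads that fit both copies were divided is not given in the sources used here, so the separate values of TUB2 and TUB3 are uncertain.

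Levels are given in FPKM, fragment counts divided by transcript length and by the size of the library, so that genes of different length can be compared. The authors' deposited table holds for each gene 1 value per genotype, which merges the 3 libraries, so no value below has an SD and library depth is unknown. TUB4 (AT5G44340, chromosome 5, 17859195 to 17861101, TAIR10) had the highest level, 566.5 FPKM in fhy1-1 against 520.7 in the GFP-FHY1 line. TUB1 (AT1G75780, chromosome 1, 28451141 to 28453640) followed with 323.1 and 278.2 FPKM. TUB5 (AT1G20010, chromosome 1, 6937795 to 6940582) came next with 281.0 and 240.4 FPKM. These 3 genes supplied 27.0%, 15.4% and 13.4% of the summed beta-tubulin FPKM in fhy1-1.

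TUB6 (AT5G12250, chromosome 5, 3961106 to 3963522) was at 223.7 FPKM against 207.5, in the same order of genotypes. TUB3 (AT5G62700, chromosome 5, 25184397 to 25186711) lay next to it in level, at 223.0 and 197.6 FPKM. Its copy TUB2 (AT5G62690, chromosome 5, 25181415 to 25183729) ends 667 bases before TUB3 begins, and stood at 170.6 and 145.6 FPKM. In both genotypes the TUB3 value was thus above that of TUB2. TUB9 (AT4G20890, chromosome 4, 11182092 to 11184072) had 184.6 and 164.7 FPKM. TUB7 (AT2G29550, chromosome 2, 12644047 to 12646037) had 73.6 and 83.0 FPKM, and TUB8 (AT5G23860, chromosome 5, 8042876 to 8044819) had 54.3 and 47.0 FPKM. The order of the 9 levels was the same in both genotypes. Without values per library it is not known which neighbours in that order differ beyond the spread of the libraries. In the RefSeq annotation each gene has 3 exons, except TUB6 with 4. All 9 were expressed well above most genes: in fhy1-1, TUB8 exceeded 89.7% of tested genes and TUB4 99.4%.

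**Figure D1:**
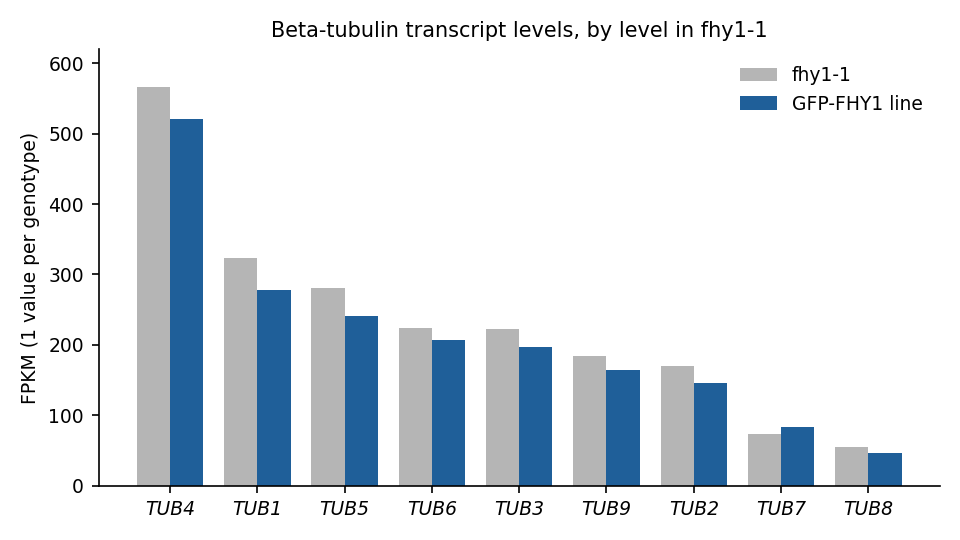
Bars show the FPKM of each beta-tubulin gene in fhy1-1 (grey) and the GFP-FHY1 line (blue), 1 value per genotype with no error available, ordered by level in fhy1-1. TUB4 stands highest at 566.5 and 520.7 FPKM, and TUB7 is the gene whose blue bar is the taller one.

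TUB9 and TUA1, an alpha-tubulin gene also known from pollen, were read beside markers of that tissue. The pollen genes ACT12, an actin, and VGD1, a pectin methylesterase, were listed at 0 in both genotypes, and the pollen actin ACT4 was below 0.02 FPKM. TUA1 was at 23.0 FPKM in fhy1-1 against 29.7 in the GFP-FHY1 line. TUB9, at 164.7 FPKM or more, was thus measured where those 3 pollen markers were at or near 0.

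Between the genotypes, 8 of the 9 genes were called lower in the GFP-FHY1 line and TUB7 was called higher, each by a small amount. A call means that the q-value of the authors' deposited table was below 0.05. Of all tested genes 22.8% were called, 12.9% lower and 9.92% higher. Those are 3089 lower and 2375 higher calls, which became 2206 and 2886 when all values were centred on the median gene, with the 9 beta-tubulin calls still 8 lower and 1 higher. Highly expressed genes were called far more often: among the 2494 tested genes with a mean within the members' range (50.6 to 544 FPKM), 67.2% were called, 48.3% lower and 18.9% higher. The median log2 fold change was -0.17 over the 9 members, -0.05 over all tested genes and -0.11 over the 2485 other genes of that range, of which 69.7% had a negative value.

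TUB2 was 1.17-fold lower in the GFP-FHY1 line, with a log2 fold change of -0.23 ± 0.025, where the error after ± is here and below the standard error implied by the authors' statistic. Its q was listed as 0 in the authors' deposited table. TUB5 (-0.23 ± 0.019) and TUB1 (-0.22 ± 0.019) were 1.17-fold and 1.16-fold lower, also with q listed as 0. Among the 2485 other genes within the members' range, 24.5% had a more negative value than TUB1, the member known for its response to light. For TUB2 this share was 22.0%. That pool spans 50.6 to 544 FPKM and was not matched to the level of each member. TUB8 was 1.15-fold lower (-0.21 ± 0.044, authors' deposited q = 1.73e-05). TUB3 was 1.13-fold lower (-0.17 ± 0.021, authors' deposited q = 4.72e-15). Summed, TUB2 and TUB3 went from 393.5 to 343.2 FPKM, 1.15-fold lower, a sum on which the division of shared reads bears little, since their transcripts are of nearly equal length (1927 and 1947 bases).

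The other 3 genes that fell did so by less than TUB3. TUB9 was 1.12-fold lower (-0.16 ± 0.024, authors' deposited q = 6.79e-11). TUB4, the most abundant, was 1.09-fold lower (-0.12 ± 0.013, with the authors' deposited q listed as 0), and TUB6 1.08-fold lower (-0.11 ± 0.021, authors' deposited q = 3.22e-06). Relative to the median of tested genes with a mean of at least 1 FPKM, which lay at -0.05, these 3 genes were at -0.12, -0.07 and -0.06. The values of TUB4 and TUB6 lay near the middle of the other genes within the members' range, 46.8% and 49.8% of which were more negative. TUB4 itself sets the upper end of that range (544 FPKM), so none of those genes had a higher mean level.

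TUB7 was 1.13-fold higher in the GFP-FHY1 line (log2 fold change 0.17 ± 0.035, authors' deposited q = 1.07e-05). Its implied 95% interval ran from 0.10 to 0.24, while those of the other 8 genes lay between -0.29 and -0.07. Of the other genes within the members' range, 85.3% had a lower value than TUB7. In RefSeq the 3′ end of TUB7 overlaps RPC14, a gene on the opposite strand, by 414 bases. RPC14 itself went from 9.79 to 8.54 FPKM and was not called (authors' deposited q = 0.711). TUB1 overlaps AT1G75785 by 639 bases and TUB9 overlaps MS5 by 457 bases, both on the opposite strand. TUB6 overlaps AT5G12240 by 83 bases on the same strand. MS5 was below 0.06 FPKM in both genotypes, and AT5G12240 went from 36.2 to 32.15 FPKM and was not called (authors' deposited q = 0.274). AT1G75785 has no entry in the authors' deposited table, so its level is unknown, and 29.2% of the 50-base windows of TUB1 match its sequence. These overlaps are those of RefSeq: with the gene ends of the authors' deposited table, none of the 9 loci overlaps that of another gene. No source used here says whether counting used strand, so how far reads of the overlapping genes entered the members' values is unknown.

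The calls rest on the error of the authors' test, which was small for the members (median 0.021 on the log2 scale). A spread between replicate libraries of 10% (coefficient of variation), added to that error, left 0 of the 9 genes called in either direction. With that spread a two-sided normal test asks for a log2 change of 0.23 for an unadjusted p of 0.05. No member changed by more than that, so the count of 0 follows from the spread chosen. The true spread of these libraries is unknown, as is whether the authors' error already holds it. With it the 95% interval of TUB2 ran from -0.46 to 0.01 and that of TUB7 from -0.07 to 0.41.

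**Figure D2:**
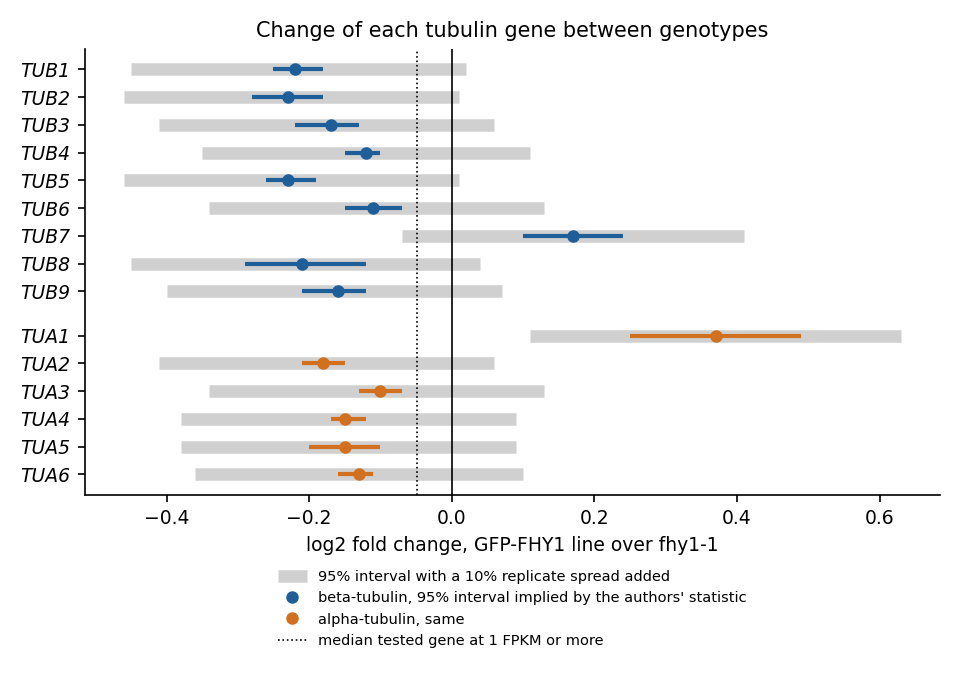
Points show the log2 fold change (GFP-FHY1 line over fhy1-1) of the 9 beta-tubulin (blue) and 6 alpha-tubulin (orange) genes, thin lines the 95% interval implied by the authors' statistic, and grey bars that interval with a 10% replicate spread added. The dotted line marks the median of tested genes with a mean of at least 1 FPKM (-0.05). All thin lines exclude 0, TUB7 and TUA1 lie to its right, and the grey bars of all 9 beta-tubulin genes cross 0.

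**Figure D3:**
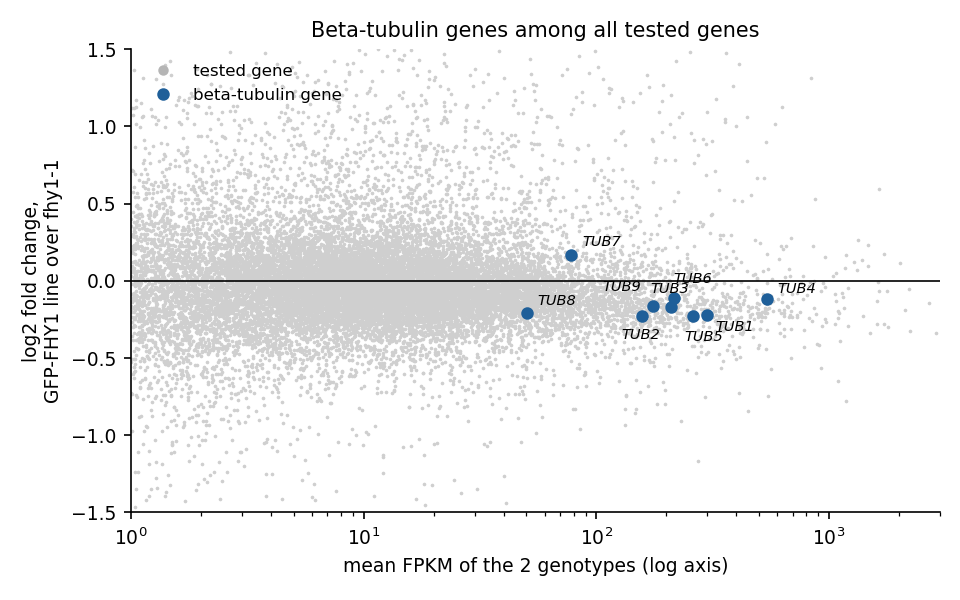
Each grey point is a tested gene, with its mean FPKM on a log axis and its log2 fold change (GFP-FHY1 line over fhy1-1), and blue points are the 9 beta-tubulin genes. Axes are limited to 1 to 3000 FPKM and to changes of 1.5 in either direction. The blue points lie at the right of the cloud and within its vertical range.

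The summed level of the family was 2100.3 FPKM in fhy1-1 against 1884.7 in the GFP-FHY1 line, 10.3% lower. The members' shares of that sum moved by under 1 percentage point. TUB7 went from 3.51% to 4.40% of the sum and TUB4 from 27.0% to 27.6%, while TUB1 went from 15.4% to 14.8% and TUB5 from 13.4% to 12.8%. The change for TUB7, 0.90 percentage points, was the largest of the 9. In a bulk sample, fewer cells that express a gene and less RNA per cell cannot be told apart.

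Alpha-tubulin is the partner in the dimer. Of its 6 genes, 5 were called lower and TUA1 higher, with a median log2 fold change of -0.14. Among 4665 other tested genes within the range of their mean levels (26.4 to 579 FPKM), 37.8% were called lower and 17.8% higher, and the median was -0.08. TUA1 alone sets the lower end of that range, and the 5 genes called lower had means of 156.7 FPKM or more. The 37.8% is thus not matched to their level. Within the range of the beta-tubulin genes 48.3% of tested genes were called lower. TUA6 fell from 605.1 to 552.0 FPKM, TUA4 from 564.1 to 509.6 FPKM and TUA2 from 415.9 to 368.1 FPKM, each with the authors' deposited q listed as 0. TUA5 fell from 164.7 to 148.6 FPKM (authors' deposited q = 2.14e-08). TUA1 was 1.29-fold higher (log2 fold change 0.37 ± 0.061, authors' deposited q = 2.40e-08), and its locus in the table overlaps another gene, as do those of TUA2 and TUA5. Summed, alpha-tubulin fell from 2200.4 to 2006.0 FPKM. The ratio of summed beta-tubulin to summed alpha-tubulin FPKM was 0.955 in fhy1-1 against 0.940 in the GFP-FHY1 line.

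Newly made tubulin needs prefoldin and a set of cofactors before it can form dimers. All 12 tested genes of this folding machinery had lower values in the GFP-FHY1 line, and 5 of them passed the test, all lower (median log2 fold change -0.19). Among 12596 other tested genes within the range of their mean levels (3.62 to 53.8 FPKM), 58.0% had lower values and 13.3% were called lower. The median of these was -0.04, and the list was not tested against them. That range reaches below the 5 called genes, whose lowest mean was 16.6 FPKM. Lower calls were rarer among genes of low level (7.92% between 4.21 and 13.6 FPKM). TTN5, a small GTPase that works with the cofactors, fell from 19.11 to 14.03 FPKM (-0.45 ± 0.11, authors' deposited q = 0.000673). The prefoldin gene PFD1 fell from 37.7 to 30.1 FPKM, and PFD5 from 31.97 to 26.0 FPKM. TFCB, cofactor B, fell from 21.5 to 18.3 FPKM. The loci of TTN5, PFD5 and TFCB overlap other genes in the table.

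Further genes start, bundle and steer microtubules. In the list of gamma-tubulin and its complex, which nucleates microtubules, 1 of 8 genes was called, GCP4, lower at 4.72 against 3.69 FPKM. The median log2 fold change of that list was -0.18. In the MAP65 list of bundling proteins 1 of 9 was called, MAP65-2, lower at 11.3 against 9.73 FPKM, and the median was 0.06. Over all tested genes 12.9% were called lower. Among other tested genes in the range of the gamma-tubulin list, 7.92% were called lower and the median was -0.03. For the range of the MAP65 list these were 7.52% and -0.04. Of 20 other tested microtubule-associated genes, 5 were called lower and 1 higher (median -0.11). Beside them, 15.5% were called lower and 11.8% higher among other tested genes within the range of their mean levels (0.812 to 695 FPKM). That range is too wide to match level. MAP18, SPR1 and WDL3, named next, lay within the range of the beta-tubulin genes, where 48.3% of tested genes were called lower. MAP18, a microtubule-destabilising protein, went from 269.8 to 226.6 FPKM (-0.25 ± 0.030), and SPR1, a plus-end protein needed for straight growth, from 279.3 to 244.2 FPKM (-0.19 ± 0.036). SP1L4, a relative of SPR1, went from 24.1 to 19.8 FPKM, and WDL3, a microtubule-bundling protein that acts in hypocotyl growth, from 108.3 to 99.4 FPKM. MOR1, which promotes microtubule growth, was the gene called higher, at 17.9 against 19.2 FPKM.

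Actin forms the other main filaments of the plant cytoskeleton. Of 6 tested actin genes 4 were called lower, with a median log2 fold change of -0.10. Among other tested genes within the range of their mean levels (22.9 to 828 FPKM), 36.3% were called lower and the median was -0.08. ACT7 went from 376.4 to 355.5 FPKM (-0.08 ± 0.016) and ACT8 from 535.8 to 504.2 FPKM (-0.09 ± 0.014). ACT3 and ACT1 were both 1.18-fold lower, from levels of 24.8 and 32.3 FPKM. ACT2, the most abundant actin, was at 830.1 and 826.1 FPKM and was not called. Whether the tubulin and actin families differ in their change was not tested.

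**Figure D4:**
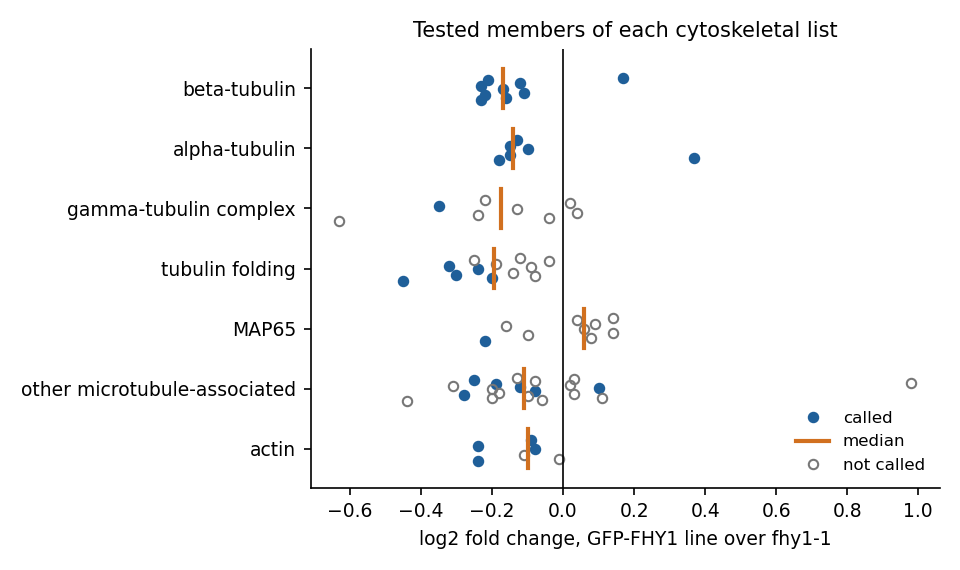
Each point is a tested gene of the named list, placed by its log2 fold change (GFP-FHY1 line over fhy1-1); filled points were called by the authors' q below 0.05, open points were not, and orange bars are list medians. The medians run from -0.19 for the folding list to 0.06 for MAP65, and beta-tubulin is at -0.17.

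Markers of organs also moved between the genotypes. Of 4 root markers (GL2, RHS19, PHT1-1 and COBL9), 3 were called lower, and the summed level of the 4 went from 119.2 to 84.9 FPKM. Among other tested genes within the range of their mean levels, 14.1% were called lower. Of 4 shoot markers, all were called higher, with sums of 3345 and 4785 FPKM, beside 20.6% called higher among other tested genes of their range. Most of these sums came from RBCS1A (3083 and 3666 FPKM). CAB3 went from 105.0 to 545.7 FPKM, LHCB2.2 from 69.0 to 449.6 FPKM and GDC-H from 87.6 to 124.2 FPKM. Whether the markers moved with the share of an organ or with their own regulation was not tested. FHY1 itself went from 18.9 to 195.9 FPKM, where mutant and transgene reads cannot be told apart. The ribosomal RNA locus AT2G01021 (chromosome 2, 6571 to 6672) took up 28.6% of all FPKM in fhy1-1 against 38% in the GFP-FHY1 line. The locus is short and FPKM divides by length, so these are not shares of the reads. The part of these markers and of this locus in the tubulin values was not tested, though the 9 calls kept their direction when both genotypes were rescaled without the locus, with log2 fold changes of -0.19 to 0.21.

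The stretch upstream of each start was searched on both strands for 6 short motifs known from plant promoters, among them the general TATA motif, to describe the letters there. This search was made with the values above known. The windows ran from 250 bases before to 50 after the RefSeq start. CACGTG, the G-box bound by light-signalling factors, was found in TUB7 alone of the 9 genes, and in 7.68% of 27443 nuclear protein-coding genes. ACGT, the core that the G-box contains, was found in 6 members (TUB2, TUB4, TUB5, TUB6, TUB7 and TUB8) and in 49.9% of all genes. TGGGCC was found in TUB2, TUB3 and TUB5 and in 15.5% of all genes, GATAAG in TUB6 and in 14.6%, and TATAAA in TUB5, TUB7, TUB8 and TUB9 and in 52.1%. CACGCGC, the site bound by FHY3 and FAR1, the activators of FHY1 transcription, was found in no member and in 1.34% of all genes. A match is a description of the letters and says nothing of binding.

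The 250 bases before the start of TUB7, the gene that rose, and of TUB1, the gene known for its response to light, are shown from TAIR10.1 with the matched motifs in capitals. Both genes are on the minus strand, and each sequence reads 5′ to 3′ towards the gene. The TUB7 stretch is chr2:12646058-12646307 and the TUB1 stretch is chr1:28453821-28454070.
TUB7: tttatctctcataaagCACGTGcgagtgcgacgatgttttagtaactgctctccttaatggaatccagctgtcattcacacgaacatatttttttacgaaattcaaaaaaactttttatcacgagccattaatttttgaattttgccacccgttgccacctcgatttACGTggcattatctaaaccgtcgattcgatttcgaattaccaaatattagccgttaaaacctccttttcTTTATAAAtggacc
TUB1: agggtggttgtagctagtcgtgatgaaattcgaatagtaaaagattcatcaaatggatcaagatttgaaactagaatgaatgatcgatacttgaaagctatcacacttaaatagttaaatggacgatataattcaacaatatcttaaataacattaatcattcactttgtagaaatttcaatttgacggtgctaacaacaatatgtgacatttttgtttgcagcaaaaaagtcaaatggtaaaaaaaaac

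In the TUB7 stretch the first bases of the G-box, of a second ACGT and of TATAAA lie at -234, -83 and -12 from the start, and the last overlaps a match on the other strand at -14. The TUB1 stretch holds none of the 6 motifs.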

How the data were processed

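RNA sequencing libraries of 2 genotypes, 3 each, were compared in 1 gene table. Its column names, per the file headers, are those that Cuffdiff writes, though no source used here names that program. Bowtie and the build TAIR10 come from the submitters' processing notes. No source used here gives versions, strand handling, read length or dispersion settings. The headers name no unit, and the 2 deposited value columns were read as FPKM. The authors' deposited log2 fold change column (stored as a score, with a placeholder for infinity) matched values recomputed from FPKM to within 1.46e-05. The statistic in the authors' deposited table was handled as a score, and the deposited p-value and q-value matched its two-sided normal tail and a Benjamini-Hochberg adjustment over 23937 tested genes. Dividing the log2 fold change by that statistic gave the implied standard error. No test over libraries could be refitted, so all calls are the authors' own.

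The members and gene lists were chosen with earlier results of these data known. All 83 listed identifiers were in the table, and 68 have the same symbol in RefSeq. Named genes are all members, FHY1, up to 4 called genes per list with the largest change and a mean FPKM of 1 or above (lists without calls give their 2 most abundant genes), and the 3 genes nearest in pattern to the called member with the largest change. Outside that rule, MOR1, TUA6, ACT2, AT2G01021, RPC14, MS5 and AT5G12240 were named after their values were seen. AT1G75785, which has no value, was named for its overlap with TUB1. Markers of pollen, root and shoot came from lists.

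Table coordinates (TAIR10) are written from 1. Of 32810 nuclear genes, 50.2% shared a start or end with the RefSeq annotation of TAIR10.1, and 42.9% did so in the last 1 Mb of each chromosome. Sequences were read from TAIR10.1. Scripts used Python 3.11.15, pandas 2.3.3, SciPy 1.17.1 and Biopython 1.88, and the retests were tested on simulated data. Alternatives were other thresholds, a pseudocount of 1, centring, rescaling, added replicate spread and leaving out overlapping loci.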

Additional observations from a re-analysis of the deposited data

How the results depend on the processing

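All 9 beta-tubulin genes stayed called in the same direction with q below 0.01, with Bonferroni adjustment, centred on the median and rescaled without the ribosomal RNA locus. A minimum of 1 FPKM and leaving out loci that overlap in the table could remove none of them. The log2 fold changes ran from -0.23 to 0.17 as deposited, from -0.18 to 0.22 when centred and from -0.19 to 0.21 when rescaled. With a 2-fold minimum change, with 1 FPKM added before taking log2 (minimum change 0.58), or with a replicate spread of 10% or 20% added, 0 were called lower and 0 higher. The first 2 of these rules ask for changes larger than any member showed. A spread of 10% asks for a log2 change of 0.23 before adjustment, which no member exceeded. The counts of 0 for the members at 10% and 20% thus follow from the values chosen. In the alpha-tubulin, microtubule and actin lists together, 21 genes were called lower and 2 higher. These became 13 and 1 with q below 0.01, 10 and 1 with Bonferroni adjustment, 11 and 4 when centred, 15 and 4 when rescaled, 15 and 1 without overlapping loci, 23 and 3 with a minimum of 1 FPKM, and 0 and 0 with the 2-fold minimum, with 1 FPKM added and with either replicate spread. Over all tested genes, 3089 lower and 2375 higher became 1258 and 1268 with Bonferroni adjustment, 114 and 508 with the 2-fold minimum, 255 and 837 with 1 FPKM added, 599 and 1193 with a spread of 10%, and 93 and 577 with 20%. The log2 ratio of summed beta-tubulin, -0.16, was -0.17 without TUB4 and -0.12 when rescaled. The log2 change of the ratio of beta-tubulin to alpha-tubulin, -0.02, was -0.04 without TUB4. Motif counts changed only for ACGT, from 6 to 5 members, without the 50 bases after the start. Where a setting changed a count, the cause was not tested beyond what the rule itself sets. No paired analysis was possible because each genotype has a single combined value, and for the same reason no library could be left out. Library depth is unknown, so its limit on these values cannot be given.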

Other observations

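The genes nearest to TUB2 in pattern were GSH1, the first enzyme of glutathione synthesis, AT2G34585, and BI1, a membrane protein that restrains cell death. They were the 3 of 803 tested genes with a mean FPKM within 1.5 times that of TUB2 whose log2 fold change lay closest to its own. GSH1 went from 114.1 FPKM in fhy1-1 to 97.5 FPKM in the GFP-FHY1 line, AT2G34585 from 122.9 to 104.8 FPKM and BI1 from 155.9 to 133.2 FPKM. The likeness rests on 2 values per gene.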
